A study of Mus musculus with 12 samples.

Results

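The genes described here are the 99 that the authors listed for 1 comparison of CD8a cells: S100a9 knockout mice after repeated social defeat against wild-type mice after the same stress. They are all rows of the table deposited for that comparison, out of 2851 genes in the 4 tables of CD8a cells and 3684 genes in all 8 tables of the series. How the authors chose them is not stated in the labels or the files. All 2851 genes were listed for some CD8a comparison, 303 of them for that of the unstressed mice. Shares of all CD8a genes and adjusted p-values, with or without stress, therefore refer to a preselected set and not to all expressed genes. The 99 are the genes meant by listed below. The choice of the 99 drew on the stressed mice themselves, so p-values of this comparison describe the listed genes and do not test them anew. The unstressed mice, which are other animals, are the separate measurement.

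Spleens came from 12 mice in 4 groups of 3: unstressed and stressed C57Bl6/J wild-type mice (WT), and unstressed and stressed S100a9-/- C57Bl6/J mice (KO). Stressed mice had 10 days of repeated social defeat, 1 day of behaviour tests followed, and cells were taken on day 12. Age, sex and the part of S100a9 that is deleted are not in the labels. Each value is the average expression of a gene over the cells called CD8a in 1 mouse, on a linear scale that appears to be per 10000. The number of cells and the depth behind each value are unknown, and an average cannot tell more cells with an RNA from more of that RNA per cell.

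CD8 T cells recognise peptides on MHC class I through the T cell receptor, with CD8 as coreceptor, and kill infected or altered cells once activated. S100A9 is a calcium-binding protein that, with S100A8, forms calprotectin; both are abundant in neutrophils and monocytes and scarce in resting T cells. Much of the RNA in a resting T cell encodes ribosomal proteins, whose messages begin with a C and a run of pyrimidines and are translated together. Social defeat is known to send neutrophils and monocytes from the bone marrow to the spleen, where red cell precursors are also made under stress.

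Some listed genes differ from a second gene by few bases, so a short read can be assigned to either. The largest differences fell on such a pair, mt-Nd3, a subunit of respiratory complex I encoded in mitochondrial DNA (chromosome M, 9459 to 9806), and Gm28438, an unprocessed pseudogene on chromosome 1 (24612775 to 24613119, minus strand). Their GENCODE M21 transcripts (mm10) align over 345 bases at 99.7% identity with 1 mismatch, T3C, counted from the first aligned base with the mt-Nd3 base first; it lies at position 9461 of chromosome M. The first 60 bases are shown because they hold that mismatch, in capitals:
mt-Nd3: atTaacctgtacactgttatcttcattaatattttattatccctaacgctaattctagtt
Gm28438: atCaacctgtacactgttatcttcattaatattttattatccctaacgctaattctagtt

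A second pair is shown because the copy lies beside the deleted gene. Gm19739 is a processed pseudogene of the ribosomal protein gene Rpl39, at 90651714 to 90651866 on chromosome 3 (minus strand, mm10). Its lower end is 40.9 kb from that of S100a9 (90692632 to 90695721, minus strand). Its 153 bases match the coding part of Rpl39 at 96.1% identity, with 6 mismatches in capitals (C22T, G30A, G54A, G77A, G83A and A142G, Rpl39 base first, counted from the first base):
Gm19739: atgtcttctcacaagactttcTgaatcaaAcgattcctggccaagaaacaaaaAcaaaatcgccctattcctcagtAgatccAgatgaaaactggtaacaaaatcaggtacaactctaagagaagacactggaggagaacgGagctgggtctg
Rpl39: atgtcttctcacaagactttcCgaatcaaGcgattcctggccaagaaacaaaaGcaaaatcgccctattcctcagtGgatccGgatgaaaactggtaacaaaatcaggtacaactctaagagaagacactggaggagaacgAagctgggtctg

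The CD8a label matched the markers. Cd8a, the coreceptor chain, was between 3.38 and 5.27 in the CD8a averages of all 12 mice and between 0.0526 and 0.269 in the CD4 averages of the same mice. Cd3d and Trbc2, parts of the T cell receptor complex, were present in every mouse. Cd4 was not among the 2851 genes, which are only those listed for a CD8a comparison, so its level in these cells is unknown. The deleted gene, S100a9, was not listed. It stood at 0.0889, 0.0368 and 0.0851 in stressed WT mice and at 0.0403, 0.00779 and 0.0337 in stressed KO mice (log2 change -0.41 ± 0.15 (SE), limma, adjusted p = 0.383). These groups overlapped. Without stress S100a9 was 0.00415, 0.0337 and 0.0146 in WT and 0.0461, 0.0322 and 0.0307 in KO mice, also with overlap. Its log2 change there was 0.22 ± 0.11 (SE; limma, adjusted p = 0.410), opposite to that under stress. Reads of transcript ends do not check a deletion whose position is not given. S100a8 was not listed either, with a log2 change of -0.09 ± 0.19 under stress (SE; limma, adjusted p = 0.902). Without stress its log2 change was 0.39 ± 0.13 (SE; limma, adjusted p = 0.195). Among the stressed mice, 3 stood apart for some listed genes: KO mouse 1 was highest for globins, WT mouse 1 for most ribosomal protein genes and WT mouse 3 for chaperones.

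Under stress, 41 of the 99 genes were higher and 58 lower in KO than in WT mice (62.2% of all 2851 genes were higher), with a median log2 change of -0.13 against 0.05 over all 2851 genes. Differences are of log2(value + 0.1), which understates changes of low genes. Among the listed genes, 4 were called higher (Gm28438, Rab4a, Gm49980 and Ngp) and 2 lower (mt-Nd3 and Gas5) at an adjusted p under 0.05 over all genes (limma), and these were the only calls: 0.14% of all 2851 genes were called higher and 0.0702% lower. Ngp was the last gene inside the threshold (adjusted p = 0.0387 by limma), and the RNA gene 2410006H16Rik and the globin Hbb-bs were the first outside it (both 0.0572). In 33 listed genes every KO mouse was above every WT mouse, in 43 every KO mouse was below, and in 23 the groups overlapped; of all genes, 10.7% and 5.4% did not overlap in these directions. At an unadjusted p under 0.05 there were 81 listed genes, against 9.72% of all genes.

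The calls depended on single mice. Without stressed WT mouse 1, or without WT mouse 2, only Gm28438 and mt-Nd3 were called. Without KO mouse 1 there were 4 calls (Gm28438, mt-Nd3, Rab4a and Gm47283), without KO mouse 3 there were 3 (Gm28438, mt-Nd3 and Rab4a), and without WT mouse 3 or without KO mouse 2 there were 10. Gm28438 and mt-Nd3 were called each time.

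Gm28438 was 0.00591, 0.00231 and 0.00396 in stressed WT mice and 1.13, 1.497 and 1.14 in stressed KO mice. The means differ 309-fold (log2 change 3.69 ± 0.14 (SE); limma, adjusted p = 1.73e-08), and the groups lie far apart. mt-Nd3 ran the other way, at 1.76, 1.48 and 1.07 in WT and 0, 0.00999 and 0.00805 in KO mice (log2 change -3.83 ± 0.16; limma, adjusted p = 4.84e-08). The sum of both genes was 1.44 ± 0.349 (SD, n = 3) in stressed WT and 1.26 ± 0.214 in stressed KO mice, and these groups overlapped. Without stress the sum was 2.81 ± 0.321 in WT and 1.45 ± 0.381 in KO mice (SD, n = 3), with no overlap. Nearly all of the sum was Gm28438 in KO mice and mt-Nd3 in WT mice, with or without stress.

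Rab4a, a small GTPase of endosome recycling, was 0.0156, 0.0270 and 0.0213 in stressed WT mice and 0.105, 0.155 and 0.122 in stressed KO mice. Every KO mouse was above every WT mouse, with a 5.97-fold ratio of means (log2 change 0.90 ± 0.12 (SE); limma, adjusted p = 0.00685). Gm49980, a predicted gene whose symbol matched neither annotation used here, was 0.0796, 0.0490 and 0.0916 in WT and 0.186, 0.217 and 0.205 in KO mice, a 2.76-fold ratio. It was higher in every KO mouse (log2 change 0.81 ± 0.13; limma, adjusted p = 0.0336). Unstressed mice had much the same levels of Rab4a: 0.0167, 0.0131 and 0.0102 in WT against 0.116, 0.106 and 0.116 in KO mice.

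**Figure D1:**
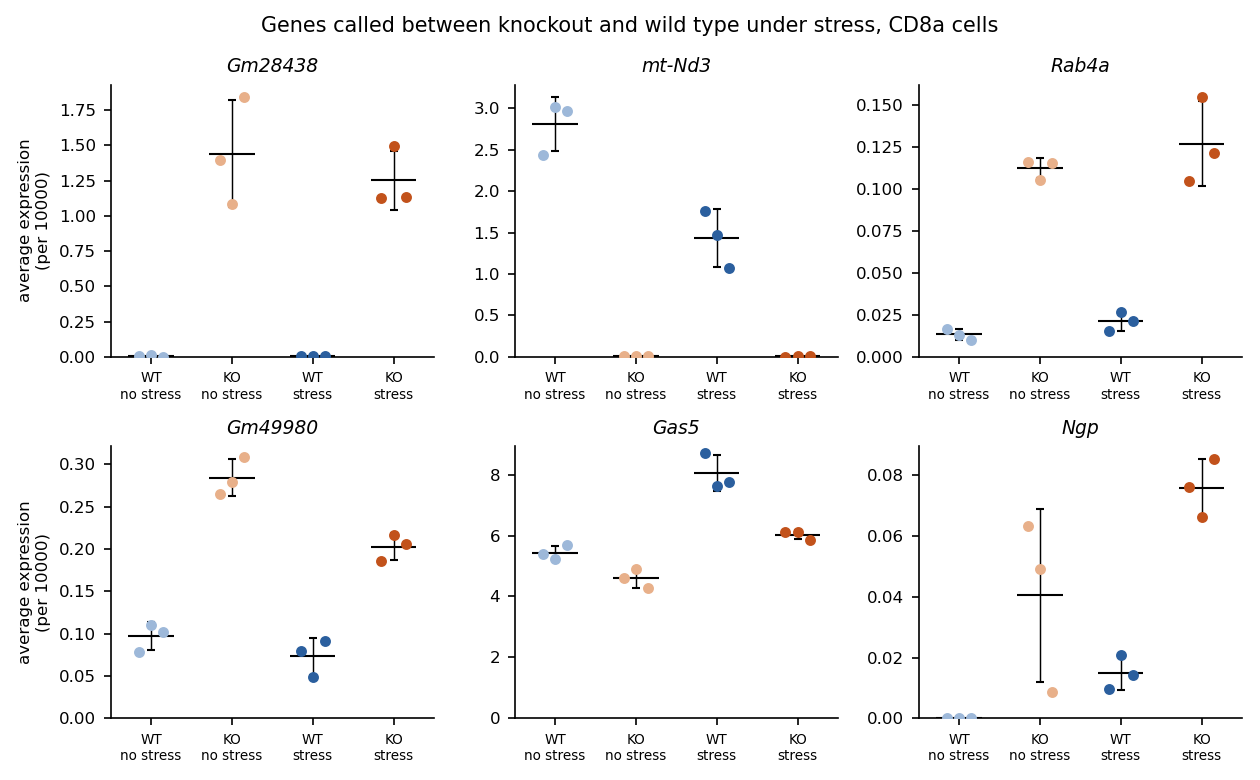
Average expression (per 10000, linear axis from 0) in CD8a cells of the 6 genes called under stress; each point is 1 mouse, lines are means and bars the SD of 3 mice, cut at 0. Gm28438 and mt-Nd3 are near 0 in opposite genotypes, and Rab4a and Gm49980 separate the genotypes with and without stress.

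Ribosomal protein genes were the largest group, with 36 of the 99. All 36 were lower in stressed KO mice, by a median log2 change of -0.15 (range -0.26 to -0.07), while 62.2% of all genes were higher. In 29 of them the mice did not overlap, against 43 of the 99 listed genes and 5.4% of all genes in this direction. None was called on its own (limma, smallest adjusted p = 0.174). Centring each mouse on its median left all 36 lower. Their levels summed to 2107, 1968 and 1937 in stressed WT mice and 1830, 1793 and 1786 in stressed KO mice. Every KO sum was below every WT sum, and WT mouse 1 had the highest value among the 6 stressed mice in 32 of the 36 genes.

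Rpl36, a protein of the large subunit, showed the largest fall in this group on the log2 scale. It was 33.5, 31.3 and 28.5 in stressed WT mice against 25.7, 25.4 and 26.4 in KO mice (log2 change -0.26 ± 0.06 (SE); limma, adjusted p = 0.174). Rps27, of the small subunit, was 85.7, 78.0 and 70.3 against 67.3, 65.2 and 67.9. In both genes the lowest WT mouse was above the highest KO mouse. At the other end Rps9 was 54.6, 53.9 and 58.6 in WT and 55.1, 53.6 and 50.9 in KO mice, and the groups overlapped.

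The CD8a tables hold 41 further cytosolic ribosomal protein genes that were not listed. Of these, 36 were lower and 5 higher in stressed KO mice, with a median log2 change of -0.06. In 7 the KO mice were lower with no overlap, against 5.4% of all genes. The log2 changes of 19 of the 41 lay within the range of the listed genes, with Rpl27a (-0.21) and Rps6 (-0.21) the lowest of them. In the unstressed mice 34 of the 36 listed genes were lower in KO mice (median log2 change -0.12), against 19 of the 41 unlisted genes (median 0.03).

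**Figure D2:**
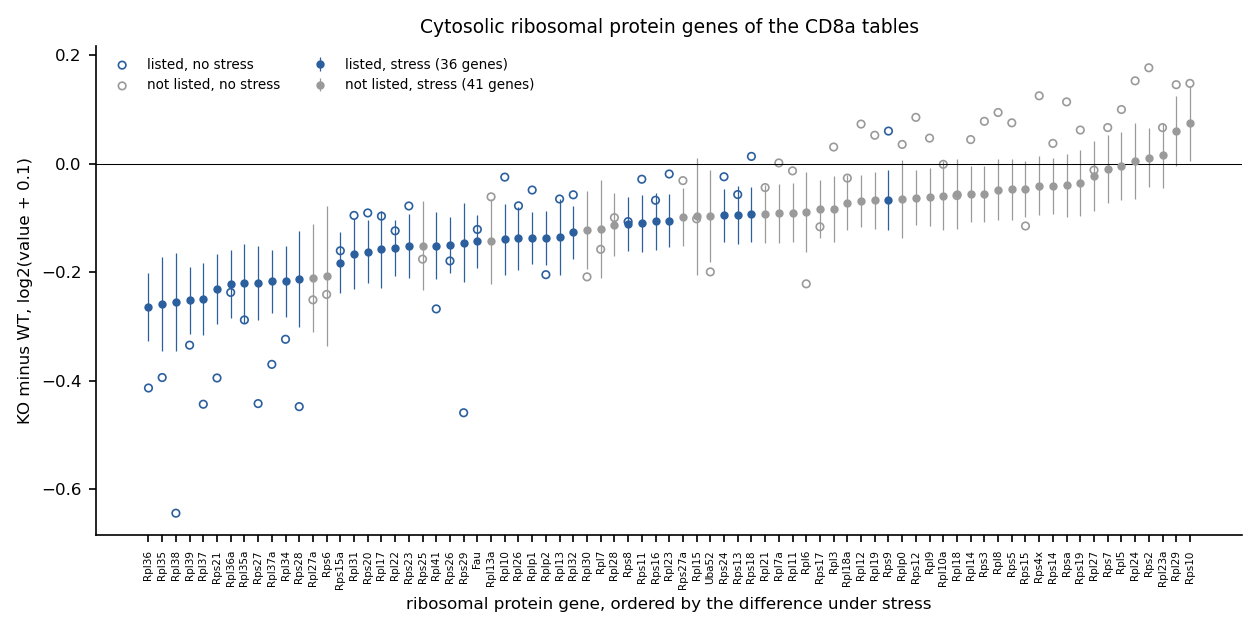
Difference between KO and WT mice, in log2(value + 0.1), for 77 cytosolic ribosomal protein genes in the order of the difference under stress; filled points with SE bars are stressed mice and open circles unstressed mice, blue for listed and grey for unlisted genes. The listed genes are all below 0 under stress, and the open circles of Rpl38, Rps29 and Rps28 lie lower than their stressed values.

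Without stress 3 of the listed ribosomal protein genes were called lower (limma), where 0.421% of all genes were. None of the 3 was called without unstressed WT mouse 2, without unstressed WT mouse 3, or when the fit had no mean-variance trend. Rpl38 was 16.7, 20.7 and 23.2 in unstressed WT and 13.6, 11.5 and 13.2 in unstressed KO mice (log2 change -0.64, adjusted p = 0.0133). Rpl35 (-0.39, adjusted p = 0.0244) and Rps29 (-0.46, adjusted p = 0.0460) were also lower in every KO mouse. Under stress Rpl38 was 26.0, 23.3 and 19.2 in WT and 19.3, 19.0 and 18.7 in KO mice, so that KO mouse 1 was above WT mouse 3 and the groups overlapped.

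The list also holds 3 RNA genes that carry small nucleolar RNAs in their introns. Small nucleolar RNAs guide the modification of ribosomal RNA, and their host transcripts share the pyrimidine start. Gas5 was 8.72, 7.62 and 7.77 in stressed WT and 6.12, 6.12 and 5.86 in stressed KO mice (log2 change -0.41 ± 0.07 (SE); limma, adjusted p = 0.0364). Zfas1 was 1.57, 1.55 and 1.55 against 1.06, 1.25 and 0.832, and 2410006H16Rik was 2.68, 2.78 and 2.86 against 1.97, 2.05 and 2.18. In all 3 genes every KO mouse was below every WT mouse, as held for 5.4% of all genes. The same was true of the 3 genes in the unstressed mice, where it held for 6.17% of all genes. Gas5 there was 5.39, 5.23 and 5.68 in WT and 4.61, 4.89 and 4.28 in KO mice (log2 change -0.24; limma, adjusted p = 0.132).

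The starts of 5 of these genes are shown with a feature that the listing did not use. The 5 were taken from the genes that have it, and no such start was found for Zfas1 or Rpl36. RefSeq promoters (GRCm38.p6) were matched for 69 of the 99 genes. The letters CTTTT or CTTTC, or CTTCT, or else CTTCC, were searched on the gene's strand alone from 10 bases before to 10 bases after the RefSeq start. These stand for a narrow form of the pyrimidine start, leave out other pyrimidine runs and may overlap one another. They also need not begin at the start base itself. Below, a match begins there in Gas5 and Rpl38, and before or after it in 2410006H16Rik, Rps27 and Rpl35. One of the 4 was present in 14 of 31 listed ribosomal protein and host genes (45.2%), in 10 of 28 unlisted ribosomal protein genes (35.7%), in 10 of 38 other listed genes (26.3%) and in 12.3% of 27025 genes. Each window below runs from 40 bases before to 10 bases after the start, with every match in the searched stretch in capitals (Rps27 and Rpl35 have 2 each); they are chr1:161035126-161035175 (plus), chr11:62602837-62602886 (plus), chr3:90213639-90213688 (minus), chr11:114668540-114668589 (plus) and chr2:39005122-39005171 (minus):
Gas5: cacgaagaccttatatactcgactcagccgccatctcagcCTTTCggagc
2410006H16Rik: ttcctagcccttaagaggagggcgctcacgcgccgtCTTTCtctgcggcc
Rps27: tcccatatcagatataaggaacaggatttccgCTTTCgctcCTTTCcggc
Rpl38: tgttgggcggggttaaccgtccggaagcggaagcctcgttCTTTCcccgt
Rpl35: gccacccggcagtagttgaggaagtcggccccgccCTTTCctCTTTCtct

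Apart from mt-Nd3, 4 genes of mitochondrial DNA were listed and all 4 were higher in stressed KO mice, also after centring. mt-Cytb, the cytochrome b of complex III, was 41.3, 43.2 and 40.7 in WT and 46.8, 46.6 and 47.0 in KO mice. mt-Atp6, of the ATP synthase, was 0.555, 0.456 and 0.546 against 0.711, 0.605 and 0.878. In both genes the genotypes did not overlap, with or without stress, while mt-Nd1 and mt-Nd2 overlapped in both. None of the 4 was called (limma, smallest adjusted p = 0.304 under stress). Of the 12 mitochondrially encoded genes in the CD8a tables, 10 were higher and 2 lower under stress, where 62.2% of all genes were higher. Among the 12, mt-Nd3 was the only call.

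A group of 6 listed genes is tied to red cells, and all 6 were higher in every stressed KO mouse than in any stressed WT mouse. Of all genes, 10.7% did so. The 6 are the adult globins Hbb-bs, Hbb-bt, Hba-a1 and Hba-a2, the anion exchanger Slc4a1 and Fech, which completes heme. Fech is not on the fixed list of red cell and platelet markers. Hbb-bs was 0.344, 0.128 and 0.330 in stressed WT mice and 8.53, 0.886 and 3.09 in stressed KO mice, a 15.6-fold ratio of means (log2 change 3.09 ± 0.57 (SE); limma, adjusted p = 0.0572). KO mouse 1 was far above the other two, and even the lowest KO mouse was above all WT mice. The 6 genes summed to 0.762, 0.292 and 0.680 in WT and to 16.2, 1.51 and 5.93 in KO mice. Without KO mouse 1 the KO mean of the sums fell from 7.89 to 3.72, against a WT mean of 0.578.

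Globins are not products of CD8 T cells, and erythrocytes were lysed before loading. Of 15 red cell and platelet markers, 5 are in the CD8a tables, and all 5 were listed. They summed to between 0.230 and 0.688 in stressed WT, 1.39 and 16.03 in stressed KO, 0.0342 and 0.850 in unstressed WT and 0.357 and 2.81 in unstressed KO mice. The part of red cell RNA in any other difference was not tested. Hba-a1 and Hba-a2 are 99.8% identical over 538 bases and Hbb-bs and Hbb-bt 94.9% over 585, so the split within each pair is uncertain. Fech stood at 0.202, 0.120 and 0.238 in stressed KO against 0.0747, 0.0629 and 0.0748 in stressed WT mice, and its unstressed groups overlapped. Its unstressed WT values, 0.142, 0.129 and 0.129, were above all stressed WT values.

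The list holds 3 genes of neutrophil granule proteins: Ngp, Lcn2, which binds iron carriers of bacteria, and Camp, an antimicrobial peptide. Ngp was 0.00963, 0.0207 and 0.0143 in stressed WT and 0.0762, 0.0663 and 0.0851 in stressed KO mice (log2 change 0.61 ± 0.10 (SE); limma, adjusted p = 0.0387). Lcn2 (0.0178, 0.00567 and 0.0227 against 0.0533, 0.0698 and 0.0380) and Camp were likewise higher in every KO mouse, as 10.7% of all genes were. Values of all 3 genes lie below the 0.1 added to each, so their log2 changes rest on it. With 1 added instead, Ngp had a log2 change of 0.08 and was not called (limma, adjusted p = 0.0879). In the unstressed WT mice all 3 genes were listed at 0, and in all 3 unstressed KO mice they were above 0: Ngp was 0.0634, 0.0493 and 0.00869 there.

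Of 20 neutrophil markers, 7 are in the CD8a tables. They summed to between 0.161 and 0.274 in unstressed WT, 0.441 and 0.678 in unstressed KO, 0.382 and 0.631 in stressed WT and 0.656 and 0.739 in stressed KO mice. Unlisted members include Lyz2, a lysozyme that monocytes also make, at 0.0207, 0.0504 and 0.0799 in stressed WT and 0.123, 0.0995 and 0.0929 in stressed KO mice, and G0s2, whose stressed groups overlapped. S100a8 and S100a9 are on the same list and overlapped between the stressed groups, with lower means in KO mice. Without stress both overlapped with higher means in KO mice. The part of neutrophil RNA in other differences was not tested. The 5 monocyte, macrophage and dendritic markers summed to between 3.16 and 3.37 in stressed WT and 3.04 and 3.43 in stressed KO mice, and the 13 B cell and MHC class II markers to between 5.45 and 7.68 and between 5.85 and 7.01.

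**Figure D3:**
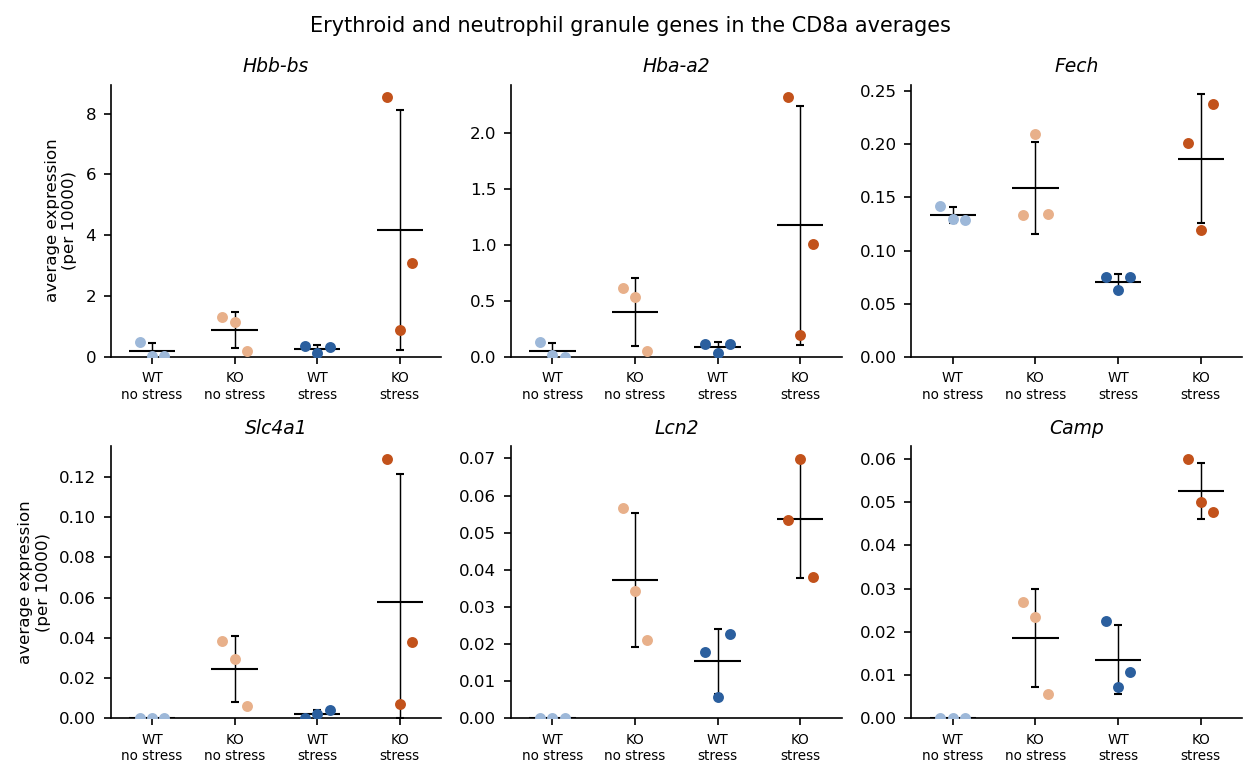
Average expression (per 10000, linear axes from 0) of red cell genes (Hbb-bs, Hba-a2 and Slc4a1), the heme enzyme Fech and 2 neutrophil granule genes (Lcn2 and Camp) in CD8a cells. Each point is 1 mouse, lines are means and bars the SD of 3 mice, cut at 0. Stressed KO mice are above all stressed WT mice in each panel, and KO mouse 1 (leftmost point) carries most of the globin mean.

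The 5 listed chaperones, which fold other proteins, were lower on average in stressed KO mice, and all 5 overlapped between the groups. They summed to 29.0, 29.0 and 43.3 in stressed WT mice and to 31.8, 26.8 and 26.2 in KO mice. WT mouse 3 alone was high. Without it, 3 of the 5 were lower and 2 higher, and the sums averaged 29.0 in WT and 28.3 in KO mice. Hsp90aa1 shows this, at 2.20, 2.98 and 5.06 in WT and 3.06, 2.49 and 2.36 in KO mice. Of the 23 heat shock and chaperone genes in the CD8a tables, 21 were lower and 2 higher in stressed KO mice, and none was called. In 1 of them the KO mice were lower with no overlap, where 5.4% of all genes were. The 23 genes summed to 48.7, 48.7 and 66.7 in stressed WT and 54.3, 44.5 and 44.3 in stressed KO mice, so WT mouse 3 was again high. Without stress 16 were higher and 7 lower in KO mice.

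Of 9 listed genes of RNA and chromatin proteins, 7 were higher and 2 lower in stressed KO mice, where 62.2% of all genes were higher. Dhx9 and Ddx17, both RNA helicases, and Sp100, of nuclear bodies, were higher in every KO mouse with and without stress. Dhx9 was 0.658, 0.770 and 0.708 in stressed WT and 0.964, 0.995 and 0.902 in stressed KO mice (log2 change 0.38 ± 0.10 (SE); limma, adjusted p = 0.233). Rrp1, of ribosomal RNA processing, was 0.902, 0.911 and 0.931 against 1.27, 1.12 and 1.27, with overlap in unstressed mice. Naca, which binds new peptides at the ribosome, and Resf1 were lower in every stressed KO mouse.

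A further 4 listed genes are tied to T cell surface or interferon response. Ms4a4b, a membrane protein of T cells, was 14.6, 15.3 and 15.3 in stressed WT and 16.7, 17.7 and 18.2 in KO mice, and 16.3, 16.9 and 16.4 against 19.95, 19.2 and 19.7 without stress. It was higher in every KO mouse in both settings (limma, adjusted p = 0.233 and 0.0952). Emb, an adhesion molecule, was 2.57, 2.58 and 2.73 in stressed WT and 2.26, 2.18 and 2.03 in KO mice, and overlapped without stress. Il7r, the receptor for the survival cytokine interleukin 7, and Ifi27l2a, an interferon-induced gene, overlapped in both settings.

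Of 32 interferon response genes in the CD8a tables, 28 were higher and 4 lower in stressed KO mice (median log2 change 0.15). Without stress 31 were higher and 1 lower (median 0.33), and none of the 32 was called by limma in either setting. The shares of all genes that were higher were 62.2% with stress and 59.6% without. Only Ifi27l2a and Sp100 of the interferon response genes were listed. No gene of the T cell identity list (11 genes) or of the activated, effector and memory list (21 genes) was listed or called under stress.

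Among 7 actin and calcium genes, 5 were higher and 2 lower in stressed KO mice, where 62.2% of all genes were higher. Camk2b, a calcium and calmodulin-dependent kinase subunit, was 0.0706, 0.0350 and 0.0449 in stressed WT and 0.120, 0.116 and 0.116 in KO mice (log2 change 0.54 ± 0.12 (SE); limma, adjusted p = 0.146). It was also higher in every KO mouse without stress. Tpm3, a tropomyosin, did the same at a log2 change of 0.21 with stress and 0.25 without. Tmsb10, which holds actin monomers, was 42.0, 34.0 and 29.2 in stressed WT and 32.4, 29.6 and 29.2 in KO mice, with overlap.

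Coro2a, an actin-binding coronin, was the 1 listed gene whose mice overlapped in neither setting and pointed in opposite directions, out of 76 listed genes with no overlap under stress (1.32%). Among the 383 unlisted genes with no overlap under stress, 13 did the same (3.39%). It was 0.232, 0.285 and 0.181 in stressed WT and 0.0657, 0.155 and 0.102 in stressed KO mice. Without stress it was 0.164, 0.173 and 0.124 in WT and 0.293, 0.269 and 0.209 in KO mice. The difference between settings was -1.18 ± 0.22 (SE) on the log2 scale, which was not called over all genes (limma interaction, adjusted p = 0.129); without stressed KO mouse 2 it was the 1 listed gene called.

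Of 7 trafficking and signalling genes, 5 were higher and 2 lower in stressed KO mice, where 62.2% of all genes were higher. In all 7 the mice did not overlap, against 10.7% of all genes that were higher and 5.4% that were lower in this way. The listing drew on the same stressed mice. Beside Rab4a, Wdfy1, which binds endosome lipids, was 0.0746, 0.0442 and 0.0996 in WT and 0.150, 0.189 and 0.141 in KO mice, and Cul3, a ubiquitin ligase scaffold, was 0.784, 0.823 and 0.956 against 1.44, 1.07 and 1.15. Bbc3, which promotes cell death, was lower in every stressed KO mouse. Rell1, a relative of tumour necrosis factor receptors, was 0.115, 0.0635 and 0.116 in stressed WT and 0.0228, 0.0232 and 0.0484 in KO mice. It was called without stress, at 0.236, 0.180 and 0.191 in WT and 0.0628, 0.0416 and 0.0416 in KO mice (log2 change -1.02 ± 0.11 (SE); limma, adjusted p = 0.000507).

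The 4 listed enzymes of metabolism and organelles were split, 2 higher and 2 lower in stressed KO mice, where 62.2% of all genes were higher. None of the 4 was called. Lars2, a mitochondrial leucyl-tRNA synthetase, and Mtfmt, which formylates the initiator tRNA of mitochondria, were higher in every stressed KO mouse. Cpt1a, which admits fatty acids to mitochondria, was 0.112, 0.181 and 0.126 in stressed WT and 0.0509, 0.0568 and 0.0735 in KO mice, and Pgm2, a phosphoglucomutase, was 0.105, 0.125 and 0.158 against 0.0609, 0.0540 and 0.0514. All 4 genes overlapped between the unstressed groups.

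The other 9 listed genes are 5 copies of other genes, Scarna2, the long noncoding RNA gene Gm42031, and Gm49980 and 1 further identifier that the annotation did not match. Scarna2, a small RNA gene of the Cajal body class, was 0.0474, 0.0403 and 0.0516 in stressed WT and 0.0994, 0.129 and 0.0961 in stressed KO mice (log2 change 0.50 ± 0.11 (SE); limma, adjusted p = 0.146). Its groups did not overlap under stress, nor without stress, where KO mice were again higher. Gm19739, shown above, was listed at 0 in all 3 stressed WT mice and at 0.0172, 0.0288 and 0.0467 in stressed KO mice. Without stress it was 0.00146, 0 and 0 in WT and 0.0766, 0.0658 and 0.0871 in KO mice, and was called (log2 change 0.81 ± 0.09 (SE); limma, adjusted p = 0.00054). Its log2 change rests on the 0.1 added to each value. Gm10076, a noncoding RNA 99.5% identical to Rpl41 over 383 bases, was called lower without stress (log2 change -0.86; limma, adjusted p = 0.0262), at 1.78, 2.99 and 2.82 in WT and 1.46, 1.08 and 1.44 in KO mice. Under stress it overlapped.

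Gm47283, on chromosome Y, is identical over 529 bases to Gm21887, so its reads are uncertain. It was 0.638, 0.631 and 0.880 in stressed WT and 0.384, 0.00357 and 0.0519 in stressed KO mice, with KO mouse 1 well above the other two (log2 change -2.04 ± 0.42 (SE); limma, adjusted p = 0.111). Tmem254a, identical to Tmem254b over 1447 bases, was 0.741, 0.710 and 0.787 against 0.391, 0.482 and 0.510. Gm5575, 93.0% identical to the chaperone gene Hspa8 over 413 bases, was 0, 0.00200 and 0.00332 against 0.0305, 0.0401 and 0.0638, opposite in direction to Hspa8. Gm47283, Tmem254a and Gm5575 all separated the stressed groups, and Gm5575 the unstressed groups too.

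In the unstressed mice 90 of the 99 genes differed between KO and WT in the same direction as under stress (90.9%), against 57.5% of all 2851 genes. Of the 90, 34 are ribosomal protein genes. The median level was 4.43 for the 99 and 0.583 for all CD8a genes, and the part of level in these shares was not tested. In KO mice 48 of the 99 were higher and 51 lower without stress, where 59.6% of all genes were higher. In 35 of the 99 (35.4%) the unstressed mice did not overlap and pointed the same way, against 12.6% of all genes. By limma 4 listed genes were called higher (Gm28438, Rab4a, Gm49980 and Gm19739) and 6 lower (mt-Nd3, Rell1, Gm10076, Rpl35, Rpl38 and Rps29), where 0.351% and 0.421% of all genes were called. At an unadjusted p under 0.05 there were 48 of the 99, against 13.5% of all genes. With no overlap in either direction, 22 listed genes were higher and 14 lower, against 12.8% and 6.17% of all genes.

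The authors listed 58 of the 99 also for the comparison of unstressed mice, which is 58.6% of these genes and 19.1% of that table's 303. All of the 99 that were called without stress are among these 58. Among the 41 that the authors did not list for unstressed mice, 33 had the same direction without stress. Gm28438, mt-Nd3, Rab4a, Gm49980, Gm19739 and Rell1 were called without stress whichever 1 of the 6 mice was left out. The count of lower calls moved from 6 to 15 without WT mouse 1, to 2 without WT mouse 2 or WT mouse 3 and to 3 without KO mouse 2, and the count of higher calls from 4 to 11 without KO mouse 3. The genes gained were mostly ribosomal protein genes in the former case and globins, Ifi27l2a, Lcn2 and Ngp in the latter.

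In 30 listed genes (30.3%) the mice did not overlap in the same direction in both settings, against 3.16% of all genes; the stressed mice in this measure are the ones the listing drew on. They include the 3 small nucleolar RNA hosts, the 3 neutrophil granule genes, Slc4a1 of the red cell genes and Rpl34, Rpl35, Rpl36, Rpl36a and Rps27 of the ribosomal protein genes. The interaction of genotype and stress was called for 0 of the 99 genes and 0% of all genes (limma, smallest adjusted p = 0.129), with 17 of the 99 at an unadjusted p under 0.05 against 7.16% of all genes. Beside Coro2a the smallest value was that of mt-Nd3 (adjusted p = 0.208).

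**Figure D4:**
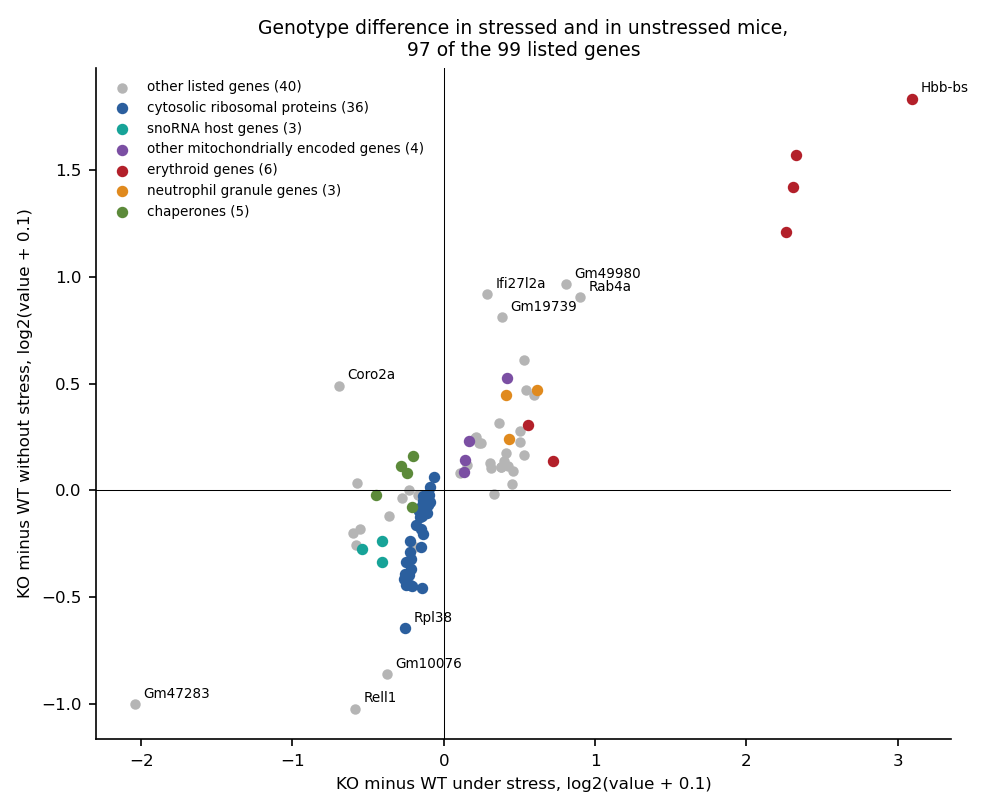
Difference between KO and WT mice in log2(value + 0.1), stressed mice on the x axis and unstressed mice on the y axis, for 97 listed genes coloured by group; Gm28438 and mt-Nd3 lie outside the axes and are left out. Most points are to the lower left or upper right of 0, Coro2a is to the upper left, and the chaperones lie near 0 on the y axis.

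On chromosome 3, 3 listed genes lie within 1 Mb of S100a9: Gm19739, Rps27 (480.1 kb between lower ends) and Tpm3 (620.0 kb). The CD8a tables hold 14 genes in that window, S100a9 and S100a8 among them. These 3 were the ones whose mice did not overlap in the same direction both with and without stress. They are 21.4% of the 14, against 3.16% of all genes and 30.3% of the listed genes. The listing drew on the same stressed mice, so this share is no separate measure of the window. Gm19739 and Tpm3 were higher and Rps27 lower in KO mice. S100a6, nearer to S100a9 than Rps27, had log2 changes of -0.43 with stress and -0.50 without, and its groups overlapped in both.

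**Figure D5:**
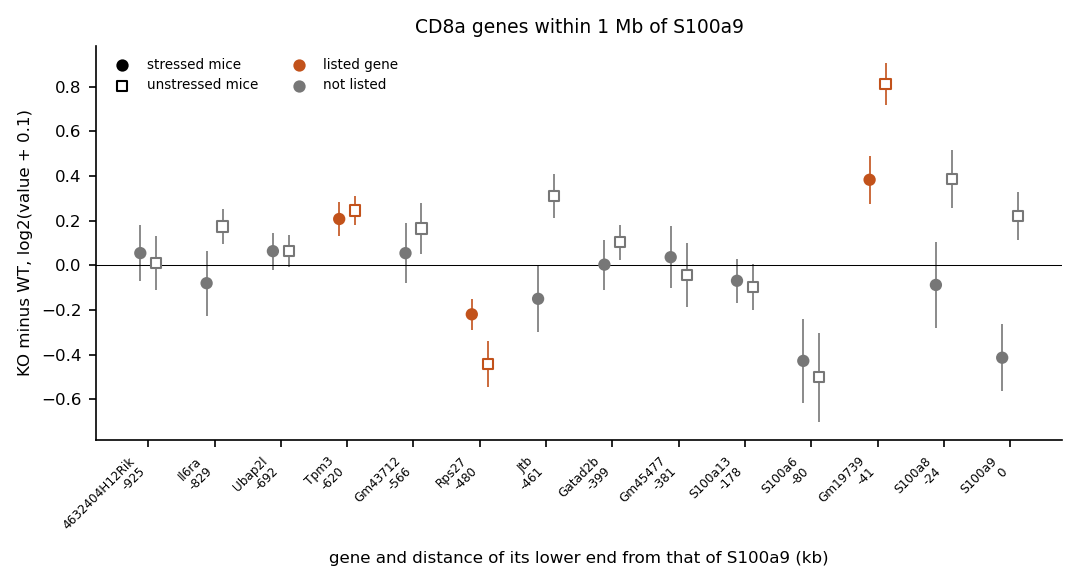
Difference between KO and WT mice in log2(value + 0.1), with SE bars, for 14 CD8a genes within 1 Mb of S100a9, in order of position (evenly spaced, distance in kb under each name); filled circles are stressed and open squares unstressed mice, orange for listed genes. Gm19739, Rps27 and Tpm3 keep their side of 0 in both settings, as do 6 of the 11 genes not listed.

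For CD4 cells of the same stressed mice, 85 of the 99 genes have values, because the authors listed them for some CD4 comparison. The levels of the other genes in CD4 cells are unknown. Of the 85, 30 were higher and 55 lower in KO mice, where 56.1% of all CD4 genes were higher. Since both cell types come from the same animals, these values stand beside the CD8a ones and are no replicate of them. Gm28438 was called higher and mt-Nd3 lower (limma), where 0.0333% and 0.0667% of 2999 genes were called. In 20 genes every KO mouse was above and in 29 below the WT mice, against 8.57% and 5.57% of all CD4 genes. At an unadjusted p under 0.05 there were 53, against 8.5% of all genes.

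The 36 ribosomal protein genes summed to 1766, 1798 and 1671 in CD4 cells of stressed WT and 1635, 1608 and 1551 of stressed KO mice, with no overlap. Ngp was 0.0358, 0.00176 and 0.0190 in WT and 0.170, 0.0829 and 0.0724 in KO mice. The globin Hbb-bs was 0.294, 0.107 and 1.37 in CD4 cells of WT and 2.80, 0.965 and 0.849 of KO mice, and the groups overlapped. Efhd2, a calcium-binding protein, was 0.457, 0.382 and 0.471 against 0.441, 0.413 and 0.431 in CD4 cells, and 0.525, 0.461 and 0.468 against 0.550, 0.664 and 0.837 in CD8a cells.

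The difference between the cell types, taken within each mouse, was called for 0 of the 85 genes and for 0% of the 2166 genes held for both (limma, smallest adjusted p = 0.845). At an unadjusted p under 0.05 there were 7 of the 85 (4 globins, Efhd2, Ddx17 and Rrp1), against 5.22% of all genes. Without stressed KO mouse 2, the globins Hba-a1, Hba-a2 and Hbb-bt were called. The log2 change of Hbb-bs was 3.09 ± 0.57 (SE) in CD8a and 1.54 ± 0.59 in CD4 cells.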

How the data were processed

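Spleen cells of 12 mice were profiled with the 10x Genomics 3' v2 kit after lysis of erythrocytes, per the labels' protocols. The submitters' processing notes name Cell Ranger 2.1.1 and mm10. Cell filters, CD8a calls and the treatment of doublets are not stated. The authors deposited 8 tables of a linear signal, the average expression per mouse, with identical values for a gene in all tables of a cell type (0 genes differed); they hold no counts, so depth is unknown and no count model was fitted. No value column was left unmapped (0).

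The log2 of each value plus 0.1 was fitted with limma 3.58.1 in R 4.3.3 (mean-variance trend, 3 mice against 3, two-sided), with Benjamini-Hochberg adjustment over all 2851 CD8a, 2999 CD4 or 2166 shared genes and calls at an adjusted p under 0.05. The interaction used all 12 mice. Nothing says how mice were housed or handled in batches. The fits were tested on simulated data. The members, gene lists, tests and alternatives were chosen with earlier results of these data known; groups by role and the genes given as examples of them were formed after values were seen. The rule for named genes took S100a9, S100a8, the calls and the largest changes in each direction with mice that did not overlap, the genes called in unstressed mice, and genes of the fixed lists. Positions and transcripts came from GENCODE M21 (96 of the 99 symbols matched, 97 with RefSeq), promoters from RefSeq GRCm38.p6, and alignments from BLAST+ 2.17.0. Alternatives were pseudocounts of 0.01 and 1, dropping the 25% of genes with the lowest levels, 2 other scalings, no trend, quality weights, a block for mouse number, a fit to all 4 groups, and omission of each mouse.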

Additional observations from a re-analysis of the deposited data

How the results depend on the processing

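Under stress the 4 higher and 2 lower calls ranged over 1 to 8 and 1 to 6 when each mouse was left out, and without stress the 4 higher and 6 lower calls over 4 to 11 and 2 to 15. The stressed count of lower calls was 1 with a pseudocount of 1, 5 after centring on each mouse's median, 1 without a trend, 6 with quality weights and 9 with all 4 groups in 1 fit. The count of higher calls was 2 with the lowest 25% of genes dropped, 3 with a pseudocount of 1 (Ngp was lost) and 8 with all 4 groups. Without stress the higher calls were 1 with the lowest 25% dropped and 9 with quality weights, and the lower calls 2 without a trend and 2 after rescaling, where fewer genes were fitted. For CD4 cells leaving out mice gave 1 to 1 higher and 1 to 4 lower calls, and rescaling after removal of ribosomal and mitochondrial genes gave 0 and 0, since it removes Gm28438 and mt-Nd3. For the interaction the ranges were 0 to 0 and 0 to 1, and for the difference between cell types 0 to 3 and 0 to 0. The log2 change of S100a8 was -0.09, 0.047 with quality weights, and -0.24 to 0.17 when each stressed mouse was left out (0.17 without WT mouse 1). The cause of these shifts was not tested unless stated. Under the 2 other scalings the median log2 change of all genes was -0.01 and 0.01, against 0.05.

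Mice share numbers across groups, and nothing says that a number marks shared handling. Same-numbered stressed mice had correlations of deviations of 0.09, 0.11 and 0.01, and unstressed mice of -0.0003, -0.08 and -0.03, so the numbers were not taken as pairs. With the number as a replicate block, 7 listed genes were called under stress (4 of them shared with the 6 above: Gas5, Gm28438, mt-Nd3 and Rab4a), 8 were called higher without stress, and 1 interaction (Coro2a) was called.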
